A study of Mus musculus with 14 samples.

Results

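Ccr4-Not is the complex that shortens the poly(A) tails of mRNAs and so starts their decay. Its subunit Cnot1 is the large scaffold, while Cnot2 and Cnot3 bind to the scaffold together as a module that recruits target mRNAs. In embryonic stem cells (ESCs) subunits of the complex are known for a part in keeping the undifferentiated state. The question here is which genes had a level on the array of cells given all 3 subunits that none of the arrays of cells given 1 subunit reached.

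The comparison used 4 of the 14 arrays of the series, 1 array per condition. The cells were partial induced pluripotent stem cells (partial iPSCs) of clone 2B1, from female C57BL/6 mice, grown with serum and leukemia inhibitory factor (LIF). Partial iPSCs are reprogrammed cells that stopped short of the pluripotent state. One array is labelled as 2B1 with Cnot1,2,3, and the other 3 as 2B1 with Cnot1, with Cnot2 and with Cnot3. All 4 cultures had been infected with retroviruses that carry the cDNAs. The sources used here do not say which share of cells carried all 3 cDNAs, or whether the cultures were pools or single clones. Alongside them, the same cells with Trim28, with Nanog or with an empty vector gave 1 array each. The remaining arrays were 2 of 2i iPSCs (clones 2B1 and 5C5 converted in 2i medium, which blocks the kinases MEK and GSK3), 2 of ESCs (the male C57BL/6 Nanog-GFP line and the male 129sv EBRTcH3 line, both in LIF and serum), 1 of embryonic fibroblasts (MEFs) of C57BL/6 Nanog-GFP mice of mixed sex, and 2 of untreated partial iPSCs (clones 2B1 and 5C5, both female C57BL/6).

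A gene was taken as beyond the single subunits when its log2 signal on the Cnot1,2,3 array lay at least 1 (2-fold) above the highest, or below the lowest, of the Cnot1, Cnot2 and Cnot3 arrays. Of 12663 genes tested, 44 were higher (0.347%) and 132 were lower (1.04%), 176 in all (1.39%). These genes were chosen by that contrast, so their values in it are a description. With 1 array per condition there is no replicate error, no test can be made, and array-to-array variation cannot be told apart from the effect of the cDNAs.

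The arrays do not check the labels. The Cnot2 probe set that represents the gene read 9.44 on the Cnot1,2,3 array, against 9.70, 9.69 and 9.65 on the Cnot1, Cnot2 and Cnot3 arrays, and 10.01 on the vector array. The Cnot3 probe set read 8.98, against 8.82, 8.93 and 9.01, and 8.95 with vector. Neither representing probe set was highest on an array labelled with its cDNA: Cnot2 was highest with vector, and Cnot3 with Nanog at 9.05. Probe sets for Cnot1 are annotated to several genes and give no value for Cnot1 alone. The sources used here do not place the probes in the transcripts or say which stretches the cDNAs hold.

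As a check of the cell type, Pou5f1 (Oct4), a core pluripotency factor, had a signal of 12.48 on the Cnot1,2,3 array, against 12.59, 12.58 and 12.53 with Cnot1, Cnot2 and Cnot3. Its partners and the naive marker were near the floor of the arrays. Zfp42 (Rex1) read 2.63 against 2.72, 2.37 and 2.51, Nanog 3.33 against 3.46, 3.52 and 3.82, and Sox2 2.90 against 3.61, 3.00 and 2.55. On the 2 ESC arrays, which were normalized separately, these 3 genes read 12.37 to 13.12. The Nanog probe set read 3.12 on the array labelled with Nanog, so it may not register transcripts of an introduced cDNA, and whether this holds for the other genes is not known.

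The 7 transduced arrays did not stand alike beside the untreated clones. Clone 5C5 and clone 2B1 differ strongly, and 95 tested genes were at least 3 lower on the untreated 2B1 array than on the untreated 5C5 array. Over these 95 genes the median signal was 4.70 on the Cnot1,2,3 array, against 5.09 with Cnot1, 6.27 with Cnot2 and 6.10 with Cnot3. It was 7.10 with Trim28, 7.60 with Nanog and 8.02 with vector. The untreated arrays, in the other normalization block, read 4.80 for 2B1 and 8.79 for 5C5. So the Cnot1,2,3 array was nearest to untreated 2B1 on these genes, and the vector, Nanog and Trim28 arrays, although labelled 2B1, read nearer to 5C5. Over the 56 genes at least 3 higher in untreated 2B1, the medians were 8.57 with Cnot1,2,3, against 9.10, 8.94 and 8.70 with the single subunits. They were 8.22 with Trim28, 6.97 with Nanog and 7.06 with vector. The untreated arrays read 9.09 for 2B1 and 5.23 for 5C5. Here the Cnot1 array was nearest to untreated 2B1, the Trim28 array read nearer to 2B1, and the vector and Nanog arrays nearer to 5C5. What part this difference between the arrays has in the results was not tested, and the counts without the genes that separate the clones are given below.

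**Figure D1:**
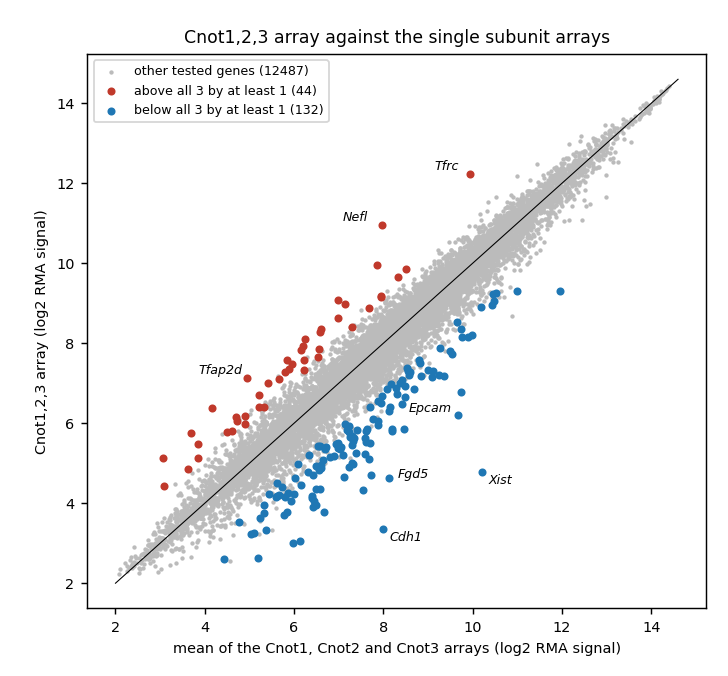
Signal of each tested gene on the Cnot1,2,3 array (vertical axis, log2) against the mean of the Cnot1, Cnot2 and Cnot3 arrays (horizontal axis, log2), with the line of equality. The 44 red points lie at least 1 above all 3 single arrays and the 132 blue points at least 1 below, with Xist and Cdh1 furthest from the line.

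Of the gene lists examined, the epithelial one had the most members among the lower genes. Cdh1 encodes E-cadherin, the adhesion protein of epithelia and of pluripotent colonies. Its signal was 3.34 on the Cnot1,2,3 array, against 7.02 with Cnot1, 8.59 with Cnot2 and 8.35 with Cnot3. The Cnot1,2,3 value is at the floor of the array, while the 3 single arrays are well above it and Cnot1 is the lowest of them. The margin to the nearest single array was -3.67. With vector Cdh1 read 10.17, with Trim28 9.50 and with Nanog 9.66.

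Krt8, a keratin of simple epithelia, had a signal of 4.70, against 6.73, 8.13 and 8.29 with Cnot1, Cnot2 and Cnot3. Both other probe sets of Krt8 gave the same order of the Cnot1,2,3 array below all 3, at 4.38 and 4.16. Krt19, another keratin of simple epithelia, read 8.15, against 9.80, 9.92 and 9.95. Krt20, a keratin of gut and bladder epithelium, read 5.25, against 6.40, 7.97 and 7.81. Esrp1, a splicing factor that makes epithelial isoforms, read 4.65, against 6.16, 7.65 and 7.52. Epcam, an epithelial adhesion protein, read 6.47, against 8.04, 8.80 and 8.44. Epcam falls just short of the threshold, at -0.94, when its probe sets are averaged.

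Over the list of epithelial genes, 5 of 26 tested lay at least 1 below all 3 single arrays (Cdh1, Epcam, Krt8, Krt19 and Esrp1) and none lay above by as much. By any margin 20 were below all 3 and 3 above, against 4288 (33.9%) below and 4333 (34.2%) above over all tested genes. The median difference of the list from the mean of the 3 single arrays was -0.65, against 0.01 over all genes. Members short of the threshold included Pkp3 (plakophilin of desmosomes), at 6.97 against 8.29, 8.15 and 7.79. The tight junction genes Cldn7 and Ocln read 4.39 against 5.12, 6.51 and 6.22, and 6.19 against 6.95, 6.84 and 6.98. Esrp2, the paralogue of Esrp1, was above all 3, at 7.43 against 6.67, 6.84 and 7.19. The summed signal of the 26 genes was 151.2, against 168.9 to 177.6 on the single arrays and 200.2 with vector. Cdh1, Epcam, Krt8 and Esrp1 also separated the untreated clones, with 2B1 minus 5C5 at -4.47, -3.18, -4.16 and -6.37. Of the 5 past the threshold, Krt19 alone, at -0.11, is left without genes at least 1 apart between the clones. What part the clone difference has in the epithelial list was not tested.

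The promoters of epithelial genes are known to hold E-boxes of the form CACCTG, bound by repressors such as Zeb1 and the Snail proteins, so the promoters of 2 epithelial genes from the lower group are shown. They run from 250 bases before to 50 bases after the start, 5′ to 3′, from RefSeq on GRCm38.p6, with capitals marking each CACCTG on either strand (CAGGTG is the same motif read on the other strand). Krt8 lies on the minus strand at chr15:102004293-102004592 and Epcam on the plus strand at chr17:87635729-87636028.
Krt8: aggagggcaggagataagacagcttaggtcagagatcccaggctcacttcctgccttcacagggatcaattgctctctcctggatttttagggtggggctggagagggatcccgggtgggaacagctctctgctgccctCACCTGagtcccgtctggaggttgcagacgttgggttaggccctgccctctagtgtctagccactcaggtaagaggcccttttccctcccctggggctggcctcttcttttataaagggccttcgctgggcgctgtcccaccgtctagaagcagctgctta
Epcam: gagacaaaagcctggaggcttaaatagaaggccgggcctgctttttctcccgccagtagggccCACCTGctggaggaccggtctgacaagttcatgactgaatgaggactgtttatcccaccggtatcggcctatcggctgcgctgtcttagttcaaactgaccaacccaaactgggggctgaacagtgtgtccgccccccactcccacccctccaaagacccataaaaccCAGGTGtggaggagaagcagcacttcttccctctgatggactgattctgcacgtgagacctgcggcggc
The Krt8 promoter holds 1 match and the Epcam promoter 2. Cdh1, Esrp1 and Krt19, also past the threshold in the epithelial list, were not in the promoter table and could not be examined. Of 132 lower genes, 104 matched the promoter table and 34 of these (32.7%) had a match in at least 1 promoter. Of 44 higher genes, 35 matched the table and 12 (34.3%) had a match. Over all tested genes it was 2220 of 10206 (21.8%), and over all genes with promoters listed by RefSeq 6098 of 27025 (22.6%). The share was thus similar in the higher and the lower genes, and a match in these letters is a description only.

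Genes of fibroblasts and mesenchyme stood the other way. Cdh2 encodes N-cadherin, the cadherin of mesenchymal and neural cells. Its signal was 8.98 on the Cnot1,2,3 array, against 6.53, 7.41 and 7.50 with Cnot1, Cnot2 and Cnot3. The Cnot1,2,3 array is the highest of the 7 transduced arrays for Cdh2, and the vector array comes next at 8.48. The second probe set gave 7.93, against 5.66, 6.55 and 6.66. Cdh2 was 1 of 30 tested genes of the mesenchymal list to pass the threshold. By any margin 20 of the 30 were above all 3 single arrays and 4 below, against 34.2% and 33.9% over all tested genes. The median difference of the list was 0.34.

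Among the mesenchymal genes short of the threshold, Twist2, a bHLH transcription factor of mesenchyme, read 6.58, against 5.52, 5.44 and 5.62. S100a4, a calcium-binding protein of motile cells, read 11.65, against 10.42, 10.41 and 10.71. Col1a2, a chain of type I collagen, read 9.46, against 8.76, 8.68 and 8.70. Not all members of the list followed. Zeb1, a repressor of Cdh1, read 9.73, against 10.80, 10.67 and 10.02, and Fn1 (fibronectin) read 11.49, against 12.81, 12.81 and 12.27. The summed signal of the list was 229.4, against 218.6 to 222.1 on the single arrays and 218.5 with vector. Whether fibroblasts in the cultures have a part in this was not tested. Col1a1 read 5.32 on the Cnot1,2,3 array, against 4.79, 4.74 and 4.59, and 12.73 on the embryonic fibroblast array of the other block. Pdgfrb, the PDGF receptor of fibroblasts, read 3.69, against 3.72, 3.54 and 3.50, and 12.22 on the fibroblast array. Both are examples from a list of 30 tested genes, with 20 above all single arrays by any margin and 4 below. Of the 44 higher genes, 20 (45.5%) were at least 1 higher in fibroblasts than in both untreated clones, and 4 (9.09%) at least 1 lower. Over all tested genes it was 9.9% and 11.3%. Dynap, among the 20, passed the filter only through the Cnot1,2,3 and fibroblast arrays, so its place there supports nothing.

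**Figure D2:**
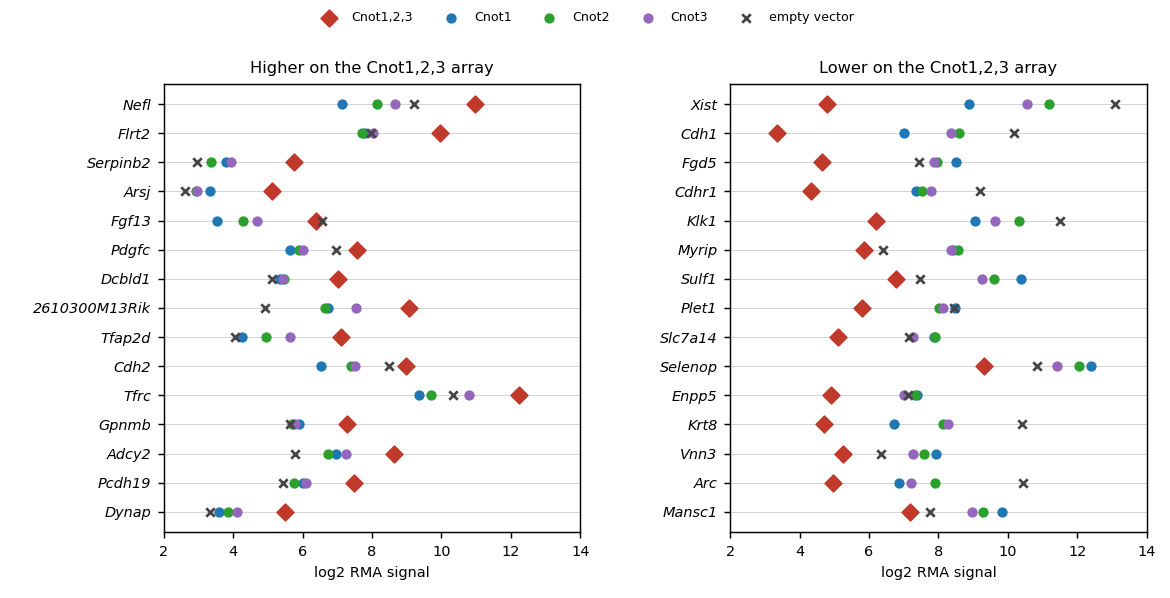
Signal (horizontal axis, log2) of the 15 genes with the largest margins above (left) and below (right) the 3 single subunit arrays, 1 row per gene. The diamonds of the Cnot1,2,3 array lie apart from the circles of the 3 single arrays by at least 1 in every row, while the crosses of the empty vector array fall on either side, as for Fgf13 (6.57 with vector) and Xist (13.08).

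Nefl, the light chain of neurofilaments, had the largest margin among the higher genes. Its signal was 10.96 on the Cnot1,2,3 array, against 7.15, 8.14 and 8.66 with Cnot1, Cnot2 and Cnot3. The second probe set read 10.11, against 6.30, 6.92 and 7.54. With Nanog Nefl read 10.84 and with vector 9.21, so the single subunit arrays were the low ones for this gene. Tfap2d is a transcription factor of the AP-2 family, which is known from the developing nervous system. It read 7.12 on the Cnot1,2,3 array, against 4.26, 4.95 and 5.63, and 4.05 with vector. The Trim28 array, at 6.06, was also above the 3 single arrays for Tfap2d. Among 18 tested neural and neural crest genes Tfap2d alone passed the threshold, with 8 of the 18 above all 3 arrays and 4 below by any margin. Over all tested genes 34.2% were above and 33.9% below.

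Nr0b1 and Foxd1 were high on the Cnot1,2,3 array without reaching the threshold. Nr0b1 (Dax1), a nuclear receptor of naive pluripotent cells, read 11.54, against 10.13, 10.26 and 10.65, a margin of 0.89. Foxd1, a forkhead factor of mesenchymal progenitors, read 10.53, against 9.24, 9.43 and 9.73, a margin of 0.80. For both, the Cnot1,2,3 array was the highest and the vector array among the lowest of the 7, at 8.53 for Nr0b1 and 6.97 for Foxd1. Foxd1 also separated the untreated clones, at 8.94 in 2B1 and 4.11 in 5C5.

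Some growth factors, receptors and signalling enzymes of the higher group are given as examples, with no count of such genes made. Pdgfc, a ligand of PDGF receptors, read 7.57, against 5.63, 5.90 and 6.01, but 6.96 with vector, 7.20 with Trim28 and 6.91 with Nanog. Fgf13, a cytoplasmic member of the FGF family, read 6.39, against 3.52, 4.28 and 4.68, but 6.57 with vector. Fgf13 has a margin of 0.95 when its probe sets are averaged. Ereg (epiregulin, a ligand of the EGF receptor) read 7.35, against 5.81, 5.76 and 6.12. Csf2 (the cytokine GM-CSF) read 6.70, against 5.28, 4.98 and 5.39, and Gdnf (a neurotrophic factor) 6.41, against 5.28, 5.03 and 5.31. For these ligands the Cnot1,2,3 array is clear of 3 single arrays that lie close together, except for Fgf13. Met, the receptor of hepatocyte growth factor, read 8.27, against 6.02, 6.66 and 7.03, and 7.69 with vector. The adenylyl cyclases Adcy2 and Adcy7, which make cyclic AMP, read 8.64 against 6.96, 6.73 and 7.25, and 6.05 against 4.85, 4.46 and 4.83. Prkg2, a kinase driven by cyclic GMP, read 8.41, against 7.24, 7.27 and 7.41.

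Tfrc, the transferrin receptor that brings iron into cells, read 12.24 on the Cnot1,2,3 array, against 9.35, 9.69 and 10.79. The vector array read 10.33, within the range of the single arrays. Its other probe sets read 6.53 against 5.53, 5.71 and 6.16, and 6.10 against 3.95, 3.92 and 5.05, and the margin is 0.96 when all are averaged. Flrt2, an adhesion protein that binds FGF receptors, read 9.95, against 7.80, 7.72 and 8.04, but 9.76 with Trim28. Serpinb2, an inhibitor of plasminogen activators, read 5.75, against 3.80, 3.37 and 3.93, and the sulfatase gene Arsj 5.12, against 3.33, 2.94 and 2.94. On the single arrays Serpinb2 and Arsj were in the dim range of the array. Tnc (tenascin C, a matrix protein) read 7.85, against 6.35, 6.52 and 6.78. Gpnmb, a membrane glycoprotein, read 7.29, against 5.89, 5.69 and 5.79, but 7.10 with Nanog. Pcdh19, a protocadherin, read 7.49, against 6.01, 5.76 and 6.11. The margins of Gpnmb and Pcdh19 are 0.77 and 0.95 when probe sets are averaged. The remaining genes among the 15 with the largest margins were Dcbld1, 2610300M13Rik and Dynap, with margins of 1.37 to 1.55.

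Xist, the RNA that coats the inactive X chromosome, had the largest margin of all. Its signal was 4.79 on the Cnot1,2,3 array, against 8.88 with Cnot1, 11.19 with Cnot2 and 10.55 with Cnot3, and 13.08 with vector. Both other Xist probe sets gave the same order, at 2.77 against 7.32, 9.78 and 9.10, and 3.58 against 6.11, 8.81 and 8.20. The untreated clones, in the other block, read 5.44 (2B1) and 13.49 (5C5). Of the other X inactivation genes, Jpx, an activator of Xist, read 6.43 against 6.73, 6.76 and 6.68. Rlim, a ubiquitin ligase that activates Xist, read 10.48, against 10.69, 10.72 and 10.64. Genes on the X chromosome were 4 of the 44 higher and 5 of the 132 lower genes, against 420 of 12663 (3.317%) over all tested genes. The median difference of all X-linked genes from the mean of the single arrays was 0.02, against 0.01 on the autosomes.

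Of the imprinted genes, Plagl1, a zinc finger factor, read 7.72 against 9.64, 9.83 and 9.15, and Sgce (epsilon-sarcoglycan) 4.41 against 5.44, 6.27 and 5.47. Averaged over their probe sets, the margins are -0.78 and -0.46. Of 17 tested imprinted genes these 2 passed the threshold, and by any margin 5 were below and 4 above all 3 arrays, no larger a share than the 33.9% and 34.2% over all genes. Dlk1, an imprinted NOTCH-family ligand, read 6.59, against 5.96, 5.94 and 5.96.

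Some secreted factors and matrix genes of the lower group are given as examples, with no count of such genes made. Sulf1, which removes sulfate groups from heparan sulfate, read 6.78 on the Cnot1,2,3 array, against 10.38, 9.61 and 9.25, and 7.48 with vector. Here the single subunit arrays, not the vector array, were the high ones. Selenop, the plasma selenium carrier, read 9.32, against 12.40, 12.06 and 11.41, and 10.85 with vector. Klk1, a tissue kallikrein, read 6.21, against 9.05, 10.31 and 9.64, and 11.52 with vector. Averaged over its 4 probe sets, Klk1 had a margin of -1.41 in place of -2.84, and on one of them the Cnot1,2,3 array was the highest, at 7.81 against 7.16, 7.07 and 7.29. Bmp4, the BMP ligand of early mesoderm, read 3.96, against 5.16, 5.49 and 5.30. Tgfb2, a TGF-beta ligand, read 5.01, against 6.51, 8.27 and 7.13. Igfbp2, which binds insulin-like growth factors, read 4.36, against 5.93, 6.68 and 7.16. Matrix genes included Col11a1, at 4.35 against 6.75, 6.97 and 5.77, Col4a6, at 6.85 against 8.99, 8.90 and 8.16, and Fbn2 (fibrillin 2), at 4.79 against 6.37, 6.68 and 5.89.

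Further genes with large margins below were Fgd5, an exchange factor for the GTPase Cdc42, and Cdhr1, a protocadherin-like protein of photoreceptors. Fgd5 read 4.64, against 8.50, 7.97 and 7.89, and 7.43 with vector. Cdhr1 read 4.32, against 7.35, 7.53 and 7.78, and 9.20 with vector. Myrip, which links vesicles to myosin, read 5.85, against 8.42, 8.58 and 8.36, and 6.41 with vector. For Fgd5 and Myrip the single arrays lie together, above all of the other transduced arrays. Plet1, a surface protein of placental and epithelial progenitors, read 5.80, against 8.47, 8.02 and 8.13, and its margin of -2.21 becomes -1.22 when probe sets are averaged. Vnn3, of the vanin family, read 5.24, against 7.92, 7.60 and 7.26, and its relative Vnn1, a pantetheinase, 7.59, against 9.04, 8.71 and 8.62. Arc, an immediate early gene known from synapses, read 4.98, against 6.87, 7.91 and 7.21, and 10.44 with vector. Ago4, an Argonaute of small RNA silencing, read 4.94, against 6.79, 6.67 and 5.99. The remaining genes among the 15 were Slc7a14, Enpp5 and Mansc1, with margins of -2.16 to -1.81.

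Of the interferon, BMP, ERK and LIF lists, none had more than 1 member past the threshold. Over all genes 1.04% were past it below, and by any margin 33.9% were below and 34.2% above all 3 arrays. Interferon response genes had 1 of 20, Ifitm1, an antiviral membrane protein, at 8.96 against 10.92, 10.29 and 10.06. By any margin 13 of the 20 were below all 3 arrays and 2 above, with a median difference of -0.52. Oasl2, an antiviral gene, read 4.31, against 6.13, 6.39 and 5.05. Of 12 targets of BMP and SMAD proteins 9 were below and 2 above, with a median of -0.46. Id4, an inhibitor of bHLH factors, read 8.48 against 9.77, 9.93 and 9.28, and Smad6, an inhibitor of BMP signalling, 5.59 against 6.59, 6.85 and 6.48. Of 21 ERK feedback and immediate early genes 13 were below and 3 above, with a median of -0.37. Dusp5, an ERK phosphatase, read 9.15 against 10.37, 10.58 and 9.93, and Fosl1, an AP-1 subunit, was above all 3, at 9.16 against 8.08, 8.17 and 8.42. Of 14 LIF and STAT3 targets 11 were below and 1 above, with a median of -0.36. None of these 4 medians reached 1 in size, and without replicate arrays their error is unknown.

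Cell cycle genes stood above the single arrays by small margins. Of 28 tested, 20 were above all 3 and 2 below by any margin, none by 1, and the median difference was 0.42. Over all tested genes 34.2% were above and 33.9% below by any margin. The difference was 0.52 from the Cnot1 array, 0.42 from the Cnot2 array and 0.10 from the Cnot3 array, so the Cnot3 array lay nearest. Ccne2, a cyclin of the start of S phase, read 9.06, against 7.36, 7.96 and 8.78. Plk1, a mitotic kinase, read 10.05, against 9.20, 9.15 and 9.45.

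Pluripotency genes showed no common direction. Of 19 naive pluripotency genes 6 were above and 9 below all 3 arrays by any margin, with a median difference of 0.02. For this and the next lists, the shares over all tested genes were 34.2% above and 33.9% below. Tfcp2l1, a naive factor, read 4.38, against 6.86, 5.70 and 4.97, while Tbx3, another, read 6.61, against 5.80, 5.77 and 5.49. Of 18 general pluripotency genes 7 were above and 5 below, and Cdh1 was the 1 past the threshold. L1td1, an RNA-binding protein of pluripotent cells, read 12.17, against 10.70, 10.73 and 11.53. Ccr4-Not subunits and partner proteins, 15 tested genes, had a median difference of -0.01, with 6 above and 5 below. Tob1, an adaptor that brings the complex to mRNAs, read 10.68, against 11.50, 11.69 and 10.92.

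**Figure D3:**
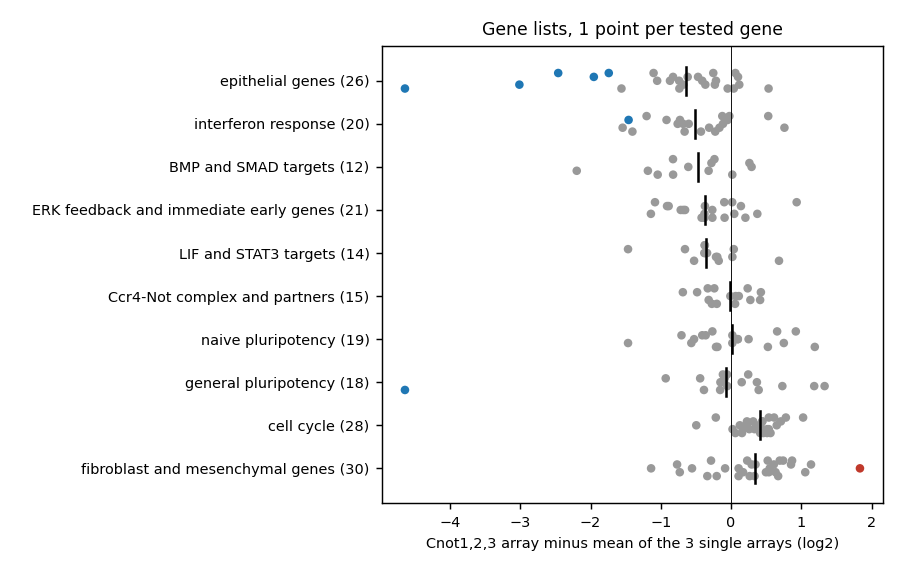
Difference of the Cnot1,2,3 array from the mean of the 3 single arrays (horizontal axis, log2) for each tested gene of 10 lists, with the list's median as a black bar and the number of genes in brackets. Blue points lie at least 1 below and red points at least 1 above all 3 single arrays, and the medians run from -0.65 for epithelial genes to 0.42 for cell cycle genes.

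The 3 single arrays were not equally far from the Cnot1,2,3 array. Against the Cnot1 array 226 genes were at least 1 higher (1.78%) and 476 lower (3.76%). Against the Cnot2 array 171 were higher (1.35%) and 539 lower (4.26%). Against the Cnot3 array 79 were higher (0.624%) and 230 lower (1.82%), the fewest. The Cnot3 array was the nearest for 35 of the 44 higher genes and 83 of the 132 lower genes, and for 6823 of all 12663. Without the Cnot3 array, 126 genes would be higher and 369 lower than both other arrays. The higher genes had a median margin of 1.21 (range 1.002 to 2.304), and the lower genes -1.27 (1.001 to 4.09 below).

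Genes at the edge of the threshold show how close the choice is. The higher genes Prkg2 (1.0017), Rnf128 (1.0087) and Nipal1 (1.0093) were just inside, and Mecom (0.9998), Dppa2 (0.9876) and Zfp428 (0.9874) just outside. Among the lower genes Cstdc2 (1.0010), Ank2 (1.0029) and Cd164l2 (1.0033) were just inside, and AU018091 (0.9988), 2610528A11Rik (0.9941) and Fry (0.9907) just outside, by the size of the margin.

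Many members were dim on one side. Of the 44 higher genes 16 were below the filter level of 5.418 on all 3 single arrays, and of the 132 lower genes 62 were below it on the Cnot1,2,3 array. Genes at or above that level on all 4 arrays were 25 of the higher and 70 of the lower genes. Genes left out by the filter on dim signals would have added 7 higher genes, Asb9 with the largest margin at 2.02, and 1 lower gene, Adarb2 at -1.14. The higher genes had 40 further probe sets and the lower genes 120. Counted were those at or above the filter level on at least 1 of the 4 compared arrays, a rule that uses the contrasted values. Such probe sets were present for 13 of the higher genes. Of these 15 probe sets 14 stood on the same side of all 3 arrays, 10 of them by at least 1. For the lower genes it was 49 of 51 probe sets, 26 of them by at least 1.

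The other transduced arrays show how often 1 array lies beyond the 3 single subunit arrays. By the same rule the vector array had 416 genes above (3.29%) and 219 below (1.73%). The Nanog array had 347 (2.74%) and 233 (1.84%), and the Trim28 array 124 (0.979%) and 28 (0.221%). These counts share the 3 single arrays with the Cnot1,2,3 counts. The Cnot1,2,3 array thus had fewer genes above than these 3 arrays, and more below than the Trim28 array alone.

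The vector array was within 1 of the range of the single arrays for 77 of the 132 lower genes. For 45 it was at least 1 above the highest single array, as for Xist, Cdh1 and Krt8, and for 10 at least 1 below the lowest. Over all 12663 tested genes the vector array was within 1 of the range for 12028, above for 416 and below for 219. Of the 132 genes, 105 were at least 1 lower on the Cnot1,2,3 array than on the vector array, 26 were within 1 and 1 was at least 1 higher. Of the 44 higher genes 34 were at least 1 above vector and 10 within 1. Over all tested genes 1067 (8.43%) were lower and 471 (3.72%) higher than vector. The members were chosen by their values on the Cnot1,2,3 array and the 3 single arrays. Each of these counts uses the Cnot1,2,3 array or the single arrays again, so nothing is read from them.

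The lower genes also differed between the untreated clones, on arrays that the choice did not use. Of the 132 lower genes 59 (44.7%) were at least 1 lower in untreated 2B1 than in untreated 5C5, and 24 (18.2%) at least 1 higher. Over all tested genes it was 788 (6.22%) and 558 (4.41%). Of the 44 higher genes 3 (6.82%) were lower and 6 (13.6%) higher in 2B1, with 35 within 1. Each clone gave 1 array, so this contrast has no test. Without all genes at least 1 apart between the clones, 35 higher and 49 lower genes are left. Among the 24 higher in 2B1 were Fgd5, at 7.61 in untreated 2B1 and 5.06 in 5C5, and Mansc1, at 9.71 and 5.25.

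**Figure D4:**
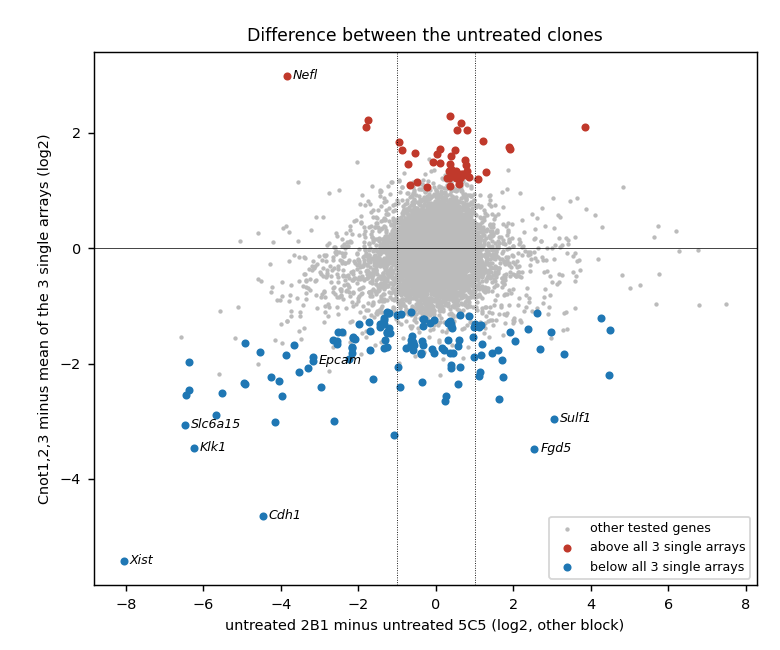
Difference of the Cnot1,2,3 array from the mean of the 3 single arrays (vertical axis, log2) against the difference of untreated 2B1 from untreated 5C5 in the other normalization block (horizontal axis, log2). Dotted lines mark a difference of 1 between the clones, and 59 of the 132 blue points lie left of the left line, with Xist and Klk1 among the furthest.

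The arrays with replicates allow a test of the same genes in conditions that the choice did not use. Untreated partial iPSCs, 2i iPSCs and ESCs gave 2 arrays each. The members of each pair are separate clones or lines, and the p-values rest on the spread between them. With limma and an adjusted p below 0.05 over all 12663 genes, 449 genes (3.55%) rose and 311 (2.46%) fell in 2i iPSCs against untreated cells. In ESCs 771 (6.09%) rose and 1244 (9.82%) fell. Both comparisons share the untreated arrays, and their values stand side by side.

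Of the 44 higher genes 21 (47.7%) fell in ESCs, 2 (4.55%) rose and 21 did not pass the test. The median log2 fold change of the 44 was -1.74, against 0.00 over all genes. Values are given for a few of the 21. Ereg read 2.97 and 2.74 in ESCs, against 7.81 and 7.45 in untreated cells, a change of -4.78 (SE 0.24, limma adjusted p = 0.00101). Antxr2, a receptor for collagen and anthrax toxin, read 3.45 and 3.31 in ESCs, against 8.39 and 8.0038 in untreated cells (-4.82, SE 0.28, limma adjusted p = 0.00143). Tnc read 3.91 and 4.25 in ESCs, against 9.20 and 8.57 in untreated cells (-4.80, SE 0.29, limma adjusted p = 0.00154). For each the ESC arrays are near the floor and do not overlap with the untreated arrays. Flrt2, Gdnf, Csf2 and Met fell too, by 4.65, 2.64, 2.51 and 2.40 on the log2 scale. Pdgfc was one of the 2 that rose in ESCs, by 2.47 (SE 0.24). The other, Enox1, read 7.37 and 10.10 in ESCs, against 4.17 and 3.66 in untreated cells. Enox1 was at or above the filter level only on 2i and ESC arrays, so it entered the test through the groups in which it is high and its call supports nothing. The filter also limits 2 of the falls. Serpinb2 reached the filter level only on the Cnot1,2,3 (5.75) and untreated 2B1 (5.50) arrays, so its call supports nothing. Dynap reached it only on the Cnot1,2,3 (5.48) and fibroblast (8.16) arrays, which are not part of this comparison. On the ESC and untreated arrays Dynap was under the filter level, and its call supports nothing either.

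In 2i iPSCs 2 of the 44 higher genes rose (4.55%) and 1 fell (2.27%), close to the 3.55% and 2.46% over all genes. Pdgfc read 8.69 and 9.08 in 2i iPSCs, against 7.16 and 7.05 in untreated cells (1.78, SE 0.24, limma adjusted p = 0.0227). The other that rose was Enox1, at 8.60 and 9.23 in 2i iPSCs, against 4.17 and 3.66 in untreated cells, with the same limit from the filter. Adcy2 fell by 1.73 (SE 0.24, limma adjusted p = 0.0227). With the clone as a block none of the 3 passed, at limma adjusted p = 0.0637 for Pdgfc and 0.0541 for Adcy2. In that fit 0 of the 44 passed, with 13 higher and 4 lower at an unadjusted p below 0.05, and over all genes 183 rose and 114 fell. Ereg, Antxr2 and Tnc read 8.42 and 8.76, 8.75 and 9.32, and 8.54 and 8.77 on the 2i arrays. Whether 2i iPSCs and ESCs differ in these genes was not tested.

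Of the 132 lower genes 8 (6.06%) fell and 1 (0.758%) rose in 2i iPSCs, beside the 2.46% and 3.55% over all genes. In ESCs 15 (11.4%) fell and 4 (3.03%) rose, beside the 9.82% and 6.09% over all genes. The median log2 fold change of the 132 was -0.60 in both comparisons. Krt19 read 4.55 and 4.78 in 2i iPSCs, against 9.97 and 10.07 in untreated cells (-5.35, SE 0.33, limma adjusted p = 0.00327). Akr1c14, a steroid dehydrogenase, fell by 5.10 (SE 0.22), Calcb, a neuropeptide, by 4.18 (SE 0.40), Pdzd2 by 3.23 (SE 0.36) and Chst15, a chondroitin sulfotransferase, by 3.14 (SE 0.28), all past limma's adjusted test. Sntb1 (syntrophin beta 1) was the gene that rose in 2i iPSCs, by 3.40 (SE 0.44, limma adjusted p = 0.0199). With the clone as a block 6 of the 8 falls and the rise of Sntb1 were called, and Selenop and Ntn4 were not (limma adjusted p = 0.0564 for both). In ESCs Krt19, Akr1c14, Calcb and Chst15 fell too, by 4.83, 5.28, 4.19 and 4.01. Cdh1, the leading epithelial gene, did not pass the test in either comparison. Its signal was 11.10 and 11.06 on the 2i arrays and 11.20 and 11.69 on the ESC arrays, against 7.40 and 11.87 in untreated 2B1 and 5C5 cells.

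The ESC counts depend on the scale. Centring each array on its median shifts all ESC changes by 0.17, and 1063 genes then rose and 1015 fell in ESCs over all genes. Of the 21 falls among the 44 higher genes 19 were called in that setting, and 13 with the 4 ESC and untreated arrays alone.

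**Figure D5:**
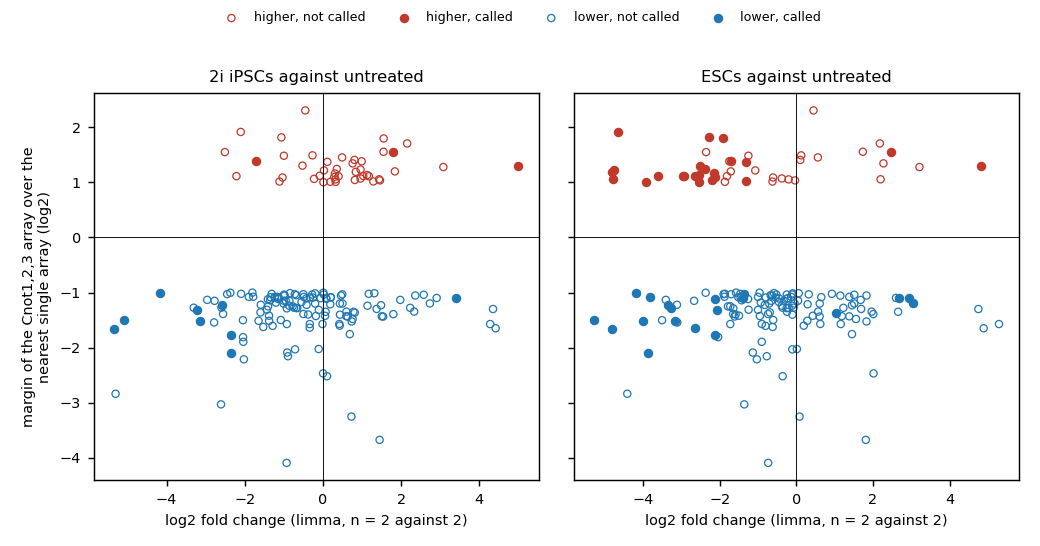
Margin of each of the 176 genes on the Cnot1,2,3 array (vertical axis, log2) against its log2 fold change in 2i iPSCs (left) and ESCs (right) relative to untreated partial iPSCs (horizontal axis, 2 arrays against 2). Filled points passed limma's test, 21 of the 44 red points as lower in ESCs and 1 as lower in 2i iPSCs.

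The embryonic fibroblast array, also outside the choice, gave 1 more view without a test. Of the 44 higher genes 20 (45.5%) were at least 1 higher in fibroblasts than in both untreated clones and 4 (9.09%) at least 1 lower, against 1254 (9.9%) and 1437 (11.3%) over all tested genes. Dynap, among the 20, passed the filter only through the Cnot1,2,3 and fibroblast arrays, so its place there supports nothing. Of the 132 lower genes 14 (10.6%) were higher and 39 (29.5%) lower in fibroblasts. Flrt2 read 11.57 in fibroblasts, against 8.22 and 10.03 in untreated 2B1 and 5C5, and Cdh2 10.56, against 8.85 and 9.82. Cdh1 read 2.79 in fibroblasts, against 7.40 and 11.87. Tfap2d read 3.45 in fibroblasts, against 3.90 and 3.25, so the signal of 7.12 on the Cnot1,2,3 array had no counterpart in the other block, where its highest value was 3.90.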

How the data were processed

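Total RNA was hybridised to Affymetrix mouse arrays of 45101 probe sets. The deposited values are log2 signals per probe set, made with RMA and the affy package per the submitters' processing notes, of unstated version. The arrays fell into 2 normalization blocks of 7. Transduced cells were compared only within their block, and levels set across blocks are named as such.

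Probe sets with exactly 1 gene in the platform's annotation were kept (34945 of 45101; 932 had several genes, 9160 none and 64 were controls), and 34741 matched a RefSeq gene table of GRCm38.p6. For each of 18193 genes the brightest probe set on average over 14 arrays was used, and the gene was tested where at least 2 of 14 arrays reached the table median of 5.418. This left 12663 genes and left out 5530. Signals of the 4 compared arrays ran from 1.88 to 14.57, and their 25th percentile was 3.60 to 3.66. The number of arrays limits the precision.

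Untreated partial iPSCs, 2i iPSCs and ESCs were fitted together with lmFit and eBayes of limma 3.58.1 under R 4.3.3 (6 arrays, 3 residual and 2.25 prior degrees of freedom, two-sided p-values with Benjamini-Hochberg adjustment). The untreated and 2i arrays are paired by clone per the labels. Deviations of the same clone from the group means correlated at 0.11, and the fit with the clone as a block is an alternative. Scripts were tested on simulated data. Other alternatives were the filter, the probe set rule, the normalization, the threshold and leaving out arrays.

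Named were the marker genes, Cnot2 and Cnot3, the 15 genes with the largest margin in each direction, list members past the threshold, genes at its edge, and the 5 called genes that moved most each way in 2i iPSCs. Other genes named as examples were chosen after their values were seen. The members and the 33 gene lists (549 symbols) were chosen with earlier results of these data known. Figures were drawn with matplotlib 3.10.9.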

Additional observations from a re-analysis of the deposited data

Results flagged for a closer look

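For some genes the change in 2i ran in opposite directions in the 2 clones by at least 1, with 1 array per clone and condition. The difference between the clones was not tested. Xist was 2.49 higher in 2i than untreated in clone 2B1 and had a change of -4.36 in 5C5. Krt8 had 1.54 in 2B1 and -2.97 in 5C5, and Epcam 1.35 and -1.37. Myrip had -1.38 in 2B1 and 1.59 in 5C5, Sulf1 -1.42 and 1.42, Ifitm1 -1.11 and 1.26, and Vnn1 -2.79 and 1.79. Ank2 had 1.13 in 2B1 and -1.11 in 5C5, and Cldn7, an epithelial gene short of the threshold, 2.38 and -1.70. The other lower genes of this kind had 2.44 and -2.04 (Gnai1), 3.56 and -2.37 (Kcnk1), 1.22 and -1.05 (Niban1), 1.26 and -1.13 (Plac8), 1.27 and -4.03 (Prph), -1.26 and 2.18 (Radil), 3.41 and -2.04 (Slc6a15), and 2.02 and -1.15 (Wfdc2). Of the 132 genes lower on the Cnot1,2,3 array 16 (12.1%) behaved in this way and of the 44 higher genes 0, against 75 of 12663 (0.592%) over all tested genes. Several of them start from different levels in the untreated clones, as Xist at 5.44 in 2B1 and 13.49 in 5C5, and the part of that difference was not tested.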

How the results depend on the processing

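The counts of 44 higher and 132 lower genes followed the threshold and the probe set rule more than the normalization. A threshold of 0.58 gave 235 and 537, one of 1.5 gave 8 and 34, and a threshold of 1 from the mean of the 3 single arrays gave 116 and 382. Counting probe sets gave 208 lower ones, and averaging the probe sets of a gene gave 23 higher and 92 lower genes. Requiring all 4 arrays to reach the filter level gave 25 and 70. Leaving out 1 single array gave 50 to 126 higher and 140 to 369 lower genes, the most without Cnot3. Leaving out genes at least 1 apart between the untreated clones, an alternative chosen after seeing the data, gave 49 lower genes. Under median centring 43 of the 44 and 115 of the 132 were found again, and with quantile normalization over the block 44 and 123. With averaged probe sets 22 of the 44 and 86 of the 132 were found again. Averaged probe sets gave 139 genes higher than on the Cnot1 array and 41 higher than on the Cnot3 array.

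In limma, with only the 4 arrays compared, 847 genes rose and 549 fell in 2i iPSCs and 289 rose and 491 fell in ESCs. Among the higher genes 7 then rose in 2i, and 1 rose and 13 fell in ESCs. Among the lower genes 3 rose and 13 fell in 2i, and 0 rose and 7 fell in ESCs by limma's adjusted p, with 12 higher at an unadjusted p below 0.05. With the clone as a replicate block 183 genes rose and 114 fell in 2i, and among the higher genes 0 rose and 0 fell by limma's adjusted p, with 13 and 4 at an unadjusted p below 0.05. Without the filter 1 higher gene rose in 2i and 2 lower genes rose in ESCs, and quantile normalization gave 2 higher genes that fell in 2i.

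Leaving out 1 array at a time, 31 to 847 genes rose and 11 to 549 fell in 2i, and 289 to 895 rose and 491 to 1434 fell in ESCs. Among the higher genes 0 to 7 rose and 0 to 2 fell in 2i, and 1 to 4 rose and 13 to 21 fell in ESCs. Among the lower genes 0 to 8 rose and 1 to 25 fell in 2i, and 0 to 12 rose and 7 to 28 fell in ESCs. A group left with 1 array is assumed to vary like the others. No member called in 2i or ESCs changed sign in the limma alternatives run, and no named margin past the threshold did. Among members not called, 66 changed sign in 2i and 59 in ESCs under at least 1 alternative. In 2i, the Cdh1 value was -0.78 without untreated 2B1, against 1.45 with all arrays, and the Xist value 3.10 without untreated 5C5, against -0.93. Without the EBRTcH3 ESC array Plagl1 was called higher in ESCs, at 2.02 against -1.62, and Xist without untreated 5C5, at 3.29 against -0.74. Over all genes the ESC split turned from 771 up and 1244 down to 1063 and 1015 with median centring. Fewer arrays and fewer genes tested belong to some of these settings by construction, and other causes were not tested. Values near the floor of the arrays limit the size of differences there.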
